A study of Drosophila melanogaster with 8 samples.

Results

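The muscle sarcomere genes encode the thick filament, the thin filament, the Z disc and the calcium and energy supply of striated muscle. They were chosen by name, as probe sets whose annotation gives 1 gene with a symbol or synonym among 32 listed genes. Of these, 26 genes were measured, with 41 probe sets among them, out of 11983 genes measured in all. The other 6 (Mhc, Act57B, Tm1, wupA, TpnC25D and TpnC47D) had no probe set annotated to them alone and were not analysed here. The arrays were Affymetrix Drosophila Genome 2.0, each hybridised with RNA of a pool of 8 whole females, at 7 days after eclosion and frozen 30 minutes after mating ended. All females were virgins until then and were of SZ, a composite of the Z strain lines ZS2, ZS11, ZS53, ZS56, ZH12 and ZH32 and so 1 mixed population rather than a set of lines. The mates were SZ males for 4 of the pools (ZxZ) and males of LHM, an outbred population of the M strain, for the other 4 (ZxM). The comparison asks whether the female's expression shortly after mating depends on the strain of her mate.

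A sarcomere slides actin-based thin filaments past myosin-based thick filaments, and calcium released inside the fibre starts this by binding troponin C, which moves tropomyosin off the actin. In the fly the indirect flight muscles of the thorax are fibrillar and stretch-activated, and use some proteins of their own. Leg, jump, abdominal, visceral and ovarian sheath muscles are built from partly different actin and troponin C genes. Whole females hold all these muscles beside ovary, gut, fat body and nervous system, so fewer muscle cells and less RNA per cell cannot be told apart.

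Levels are on the log2 scale of the deposited values, and a difference is ZxZ minus ZxM from limma with array weights, so it can depart from the difference of the plain group means. The fit covered the 5991 genes that varied most, those in the upper 50% by interquartile range. Of the measured sarcomere genes, 25 were among them. Actn was not, with an interquartile range of 0.070 against a limit of 0.091. Among all tested genes 18.7% were called at 10% FDR (Benjamini-Hochberg), with 17.6% (1057 genes) lower in ZxZ and 1.1% (66 genes) higher. Without array weights limma called 0 of these genes (1365 at an unadjusted p under 0.05). The values of any 2 arrays correlated at 0.996 to 0.998 over all probe sets, none of the 28 pairs of arrays was identical, and the array weights ran from 0.505 (ZxM replicate 2) to 1.75 (ZxM replicate 1).

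No sarcomere gene was called between ZxZ and ZxM females: of 25 tested, 0 passed limma at 10% FDR in either direction, and 1 had an unadjusted p under 0.05, against 35% of all tested genes. Their adjusted p ran from 0.142 for flr to 0.990 for Argk1. On the probe set used for each of the 26 measured genes, the ZxZ and ZxM arrays overlapped. They did not for 13.1% of all tested genes and for 1227 of all 11983 measured genes. The median difference was -0.067 over the 26 genes (range -0.20 to 0.18), of which 20 were negative and 6 positive (19 of the 25 tested were negative, against 74.1% of all tested genes). Over all measured genes the median was -0.037, and over the tested genes alone it was -0.061 for sarcomere genes and -0.094 for all. The 95% intervals of the 26 differences reached down to between -0.42 and -0.083 and up to between -0.00054 and 0.45, so differences of such sizes are not excluded.

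**Figure D1:**
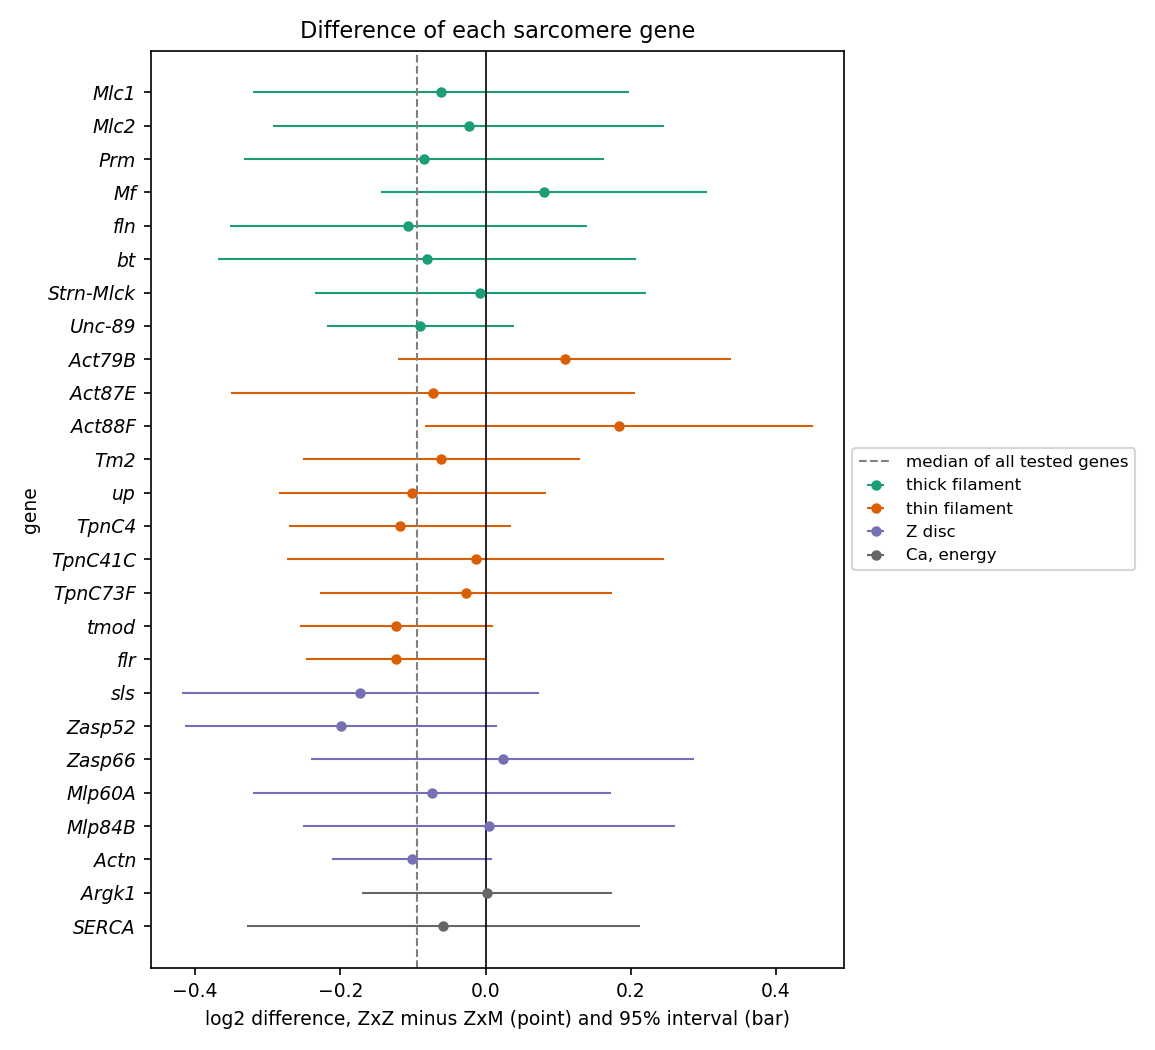
Log2 difference ZxZ minus ZxM of each of the 26 measured sarcomere genes (horizontal axis; points are limma estimates, bars their 95% intervals, colours the part of the sarcomere), with the median of all tested genes, -0.094, as a dashed line. Every interval but that of flr, whose upper end is at -0.00054, spans 0.

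Whether a gene passed depended on single arrays. Without ZxZ replicate 2, 4 sarcomere genes were lower in ZxZ (fln, flr, sls and Zasp52), when 40.1% of all tested genes were called. Without ZxM replicate 2 there were 3 (TpnC4, flr and Zasp52, against 42.6% of all), without ZxZ replicate 1 there were 2 (tmod and Zasp52, against 48.4%) and without ZxM replicate 4 there was 1 (flr, against 49.5%). Leaving out any of the other 4 arrays left 0, with at most 1 sarcomere gene at an unadjusted p under 0.05, and then limma called no gene of the whole table either (1106 to 1346 at an unadjusted p under 0.05). The median of the sarcomere genes was 0.042 without ZxZ replicate 4 and -0.12 without ZxZ replicate 2.

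The flight muscle isoforms are Act88F, the actin of the indirect flight muscles, TpnC4, the main troponin C of these fibres, and fln (flightin), which binds their myosin. Act88F was at 9.09, 9.67, 9.26 and 8.99 in ZxZ replicates 1 to 4, against 8.99, 8.98, 9.27 and 9.04 in ZxM replicates 1 to 4. ZxZ replicate 2 stood above the rest, and the other ZxZ arrays lay within the range of ZxM. The difference of 0.18 (SE 0.121, 95% interval -0.083 to 0.45) had the largest positive value of the 26 genes and did not pass the test (adjusted p = 0.277 from limma).

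TpnC4 was at 10.65, 10.72, 10.59 and 10.50 in ZxZ replicates 1 to 4, against 10.76, 10.46, 10.69 and 10.81 in ZxM replicates 1 to 4. ZxM replicate 2 was the lowest of the 8 arrays and ZxM replicate 4 the highest, so ZxM spanned ZxZ entirely. The difference was -0.12 (SE 0.0693, adjusted p = 0.231 from limma). fln was at 9.87, 10.27, 9.82 and 9.79 in ZxZ replicates 1 to 4, against 9.98, 9.67, 10.24 and 10.07 in ZxM replicates 1 to 4. Here too ZxZ replicate 2 was high and ZxM replicate 2 low, and the groups averaged 9.94 ± 0.225 in ZxZ and 9.99 ± 0.238 in ZxM (SD, n = 4 each).

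Of the actins of other muscles, Act79B, an actin of tubular muscles such as those of the legs, was at 10.18, 10.34, 10.23 and 9.91 in ZxZ replicates 1 to 4, against 9.90, 9.93, 10.29 and 10.18 in ZxM replicates 1 to 4. ZxZ replicate 4 was among the lowest arrays, with ZxM replicates 1 and 2. Act87E, a further muscle actin, was at 10.17, 10.62, 10.24 and 9.93 in ZxZ replicates 1 to 4, against 10.32, 9.89, 10.43 and 10.34 in ZxM replicates 1 to 4. It was highest in ZxZ replicate 2 and lowest in ZxM replicate 2, 0.73 apart, and the means were 10.24 ± 0.285 in ZxZ and 10.25 ± 0.241 in ZxM (SD, n = 4 each). The differences were 0.11 for Act79B (SE 0.104, adjusted p = 0.443 from limma) and -0.072 for Act87E (SE 0.126, adjusted p = 0.681). The fly actins are near-identical in their coding sequence, probe sequences were not used here, and cross-hybridisation between actin probe sets was not tested.

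Of the other troponin C genes, TpnC41C, the isoform of tubular adult muscles, was at 9.75, 10.05, 9.65 and 9.51 in ZxZ replicates 1 to 4, against 9.65, 9.38, 9.93 and 9.88 in ZxM replicates 1 to 4. TpnC73F, which is found in larval and adult muscles, was at 7.83, 8.16, 8.17 and 7.82 in ZxZ replicates 1 to 4, against 8.002, 7.91, 8.18 and 8.07 in ZxM replicates 1 to 4. For both the spread inside a group exceeded the difference between groups, which was -0.014 for TpnC41C (SE 0.117, adjusted p = 0.938 from limma) and -0.027 for TpnC73F (SE 0.0911, adjusted p = 0.835). Over the isoforms, the median difference was -0.11 for the 3 flight muscle genes and -0.021 for the 4 measured others.

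**Figure D2:**
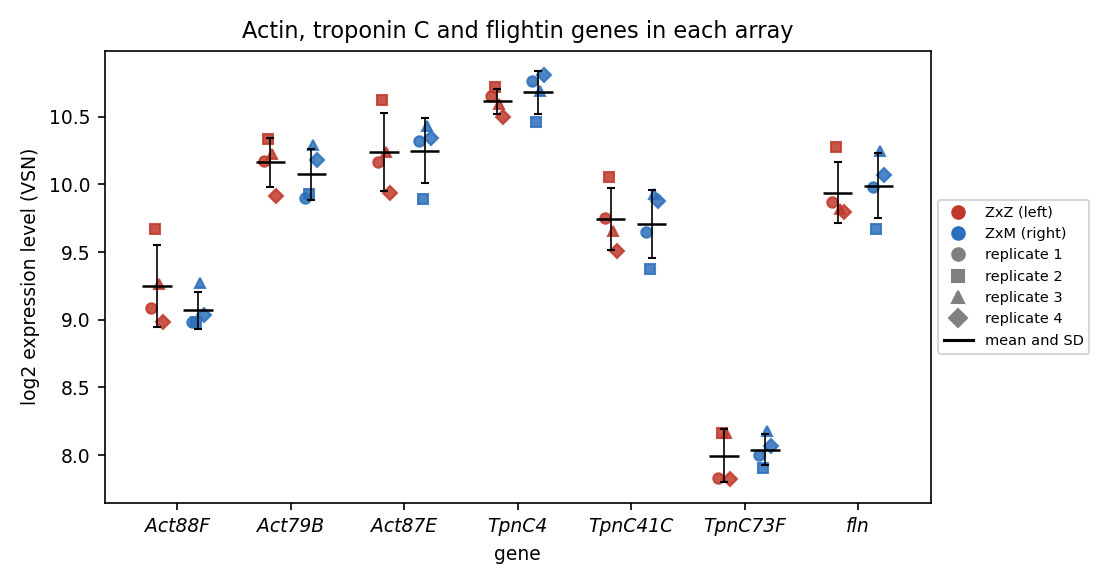
Log2 expression level (vertical axis) of 7 actin, troponin C and flightin genes in each array, with ZxZ (red) left of ZxM (blue), marker shapes for the replicate and black bars for mean and SD. The groups overlap for each gene, and ZxZ replicate 2 (red square) is above ZxM replicate 2 (blue square) in all 7.

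Flight muscle and other isoforms were also set against each other inside each array, where a shift common to both genes drops out. Of 7 pairs listed, 4 were measured. The offset between 2 probe sets is not a ratio of transcript levels, and only its change between groups was read. Act88F less Act87E was at -1.08, -0.95, -0.97 and -0.95 in ZxZ replicates 1 to 4, against -1.33, -0.91, -1.16 and -1.31 in ZxM replicates 1 to 4. ZxM replicate 2 lay above all ZxZ arrays and the other 3 ZxM arrays below them. The group means were -0.99 ± 0.0630 in ZxZ and -1.18 ± 0.194 in ZxM (SD, n = 4 each), a difference of 0.19 (two-sided p = 0.143 by an exact permutation test, or 0.571 when adjusted for the 4 pairs). Act88F less Act79B differed by 0.093 (exact p = 0.429), TpnC4 less TpnC41C by -0.10 (exact p = 0.429) and TpnC4 less TpnC73F by -0.022 (exact p = 0.771), with adjusted p of 0.571, 0.571 and 0.771. None of the 4 pairs passed, and the smallest p that 4 arrays against 4 allow is 0.0286. Without ZxM replicate 2, Act88F less Act87E differed by 0.28, with p = 0.0286 and an adjusted p of 0.114 from the same exact test. That array was the only ZxM array not below ZxZ, and 0.0286 is also the smallest p that 3 arrays against 4 allow.

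**Figure D3:**
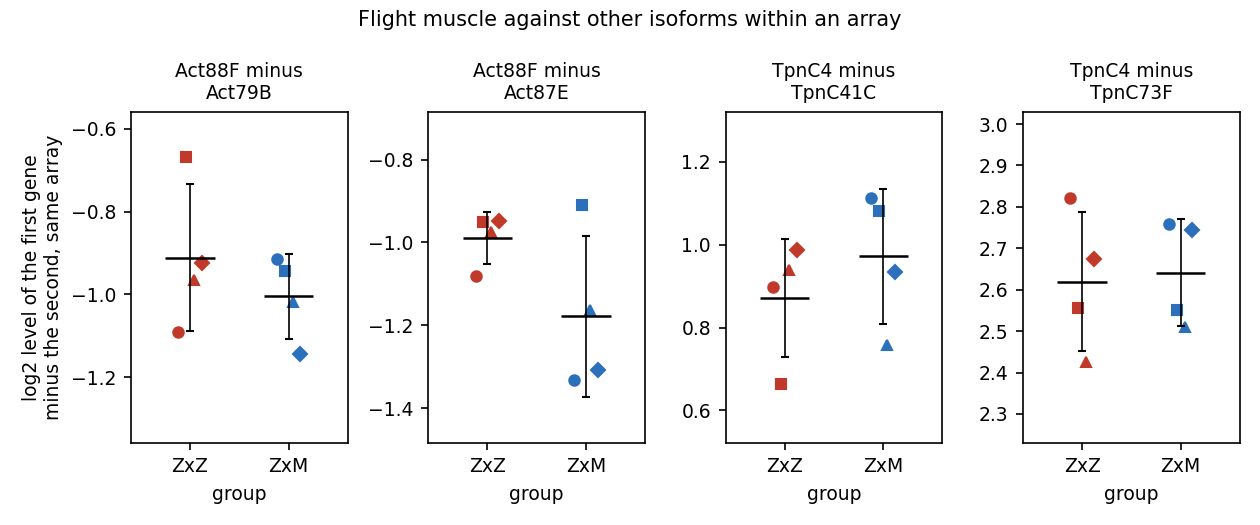
Log2 level of a flight muscle isoform minus that of another isoform in the same array (vertical axis, each panel 0.8 units high) for ZxZ (left) and ZxM (right), with the mean and SD of 4 arrays. The means for Act88F less Act87E are -0.99 in ZxZ and -1.18 in ZxM, with ZxM replicate 2 (blue square) above the ZxZ points.

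In the thick filament, 8 of 9 listed genes were measured and tested, none passed, and the median difference was -0.070 (range -0.11 to 0.080). Mlc1 and Mlc2 encode the light chains that bind the myosin neck. Mlc1 was at 11.58, 11.92, 11.67 and 11.33 in ZxZ replicates 1 to 4, against 11.59, 11.43, 11.95 and 11.73 in ZxM replicates 1 to 4. Its high arrays (ZxZ replicate 2 and ZxM replicate 3) and low arrays (ZxZ replicate 4 and ZxM replicate 2) came 1 of each from both groups, and it differed by -0.061 (SE 0.117), while Mlc2 differed by -0.023 (SE 0.122). Prm (paramyosin), which forms the filament core, differed by -0.085 (SE 0.113), and Mf (myofilin), a further thick filament protein, by 0.080 (SE 0.102).

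The giant kinase proteins of the thick filament were bt (projectin), which links it to the Z disc, Strn-Mlck, of the titin and myosin light chain kinase family, and Unc-89 (Obsc in the current gene table), the obscurin of the M line. bt was at 9.37, 9.56, 9.24 and 9.15 in ZxZ replicates 1 to 4, against 9.30, 8.84, 9.61 and 9.62 in ZxM replicates 1 to 4. Its range over the arrays, 0.78 or 1.72-fold, was the largest of the 26 genes, and both ends of it were ZxM arrays. The difference was -0.080 (SE 0.130) for bt, -0.0073 (SE 0.103) for Strn-Mlck and -0.090 (SE 0.0586) for Unc-89.

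In the thin filament 10 of 15 listed genes were measured and tested, and none passed, with a median difference of -0.067 (range -0.12 to 0.18). Tm2, a tropomyosin, averaged 9.72 ± 0.173 in ZxZ and 9.76 ± 0.154 in ZxM (SD, n = 4 each). The smallest p of all sarcomere genes was that of flr, the fly counterpart of AIP1, which promotes actin filament turnover with cofilin and is expressed well beyond muscle. flr was at 10.67, 10.77, 10.70 and 10.67 in ZxZ replicates 1 to 4, against 10.81, 10.73, 10.98 and 10.77 in ZxM replicates 1 to 4. ZxM replicates 2 and 4 lay below ZxZ replicate 2, and ZxM replicate 3 was the highest array. The difference was -0.12 (SE 0.0559, unadjusted p = 0.0492, adjusted p = 0.142 from limma). tmod (tropomodulin), which caps the pointed end of actin filaments in muscle and elsewhere, was at 10.23, 10.10, 10.08 and 10.20 in ZxZ replicates 1 to 4, against 10.23, 10.10, 10.31 and 10.36 in ZxM replicates 1 to 4. ZxM replicates 3 and 4 were the highest arrays, ZxM replicate 1 was level with the highest of ZxZ, ZxM replicate 2 lay among the ZxZ arrays, and the difference was -0.12 (SE 0.0602, adjusted p = 0.167 from limma). With arrays centred on their median, flr, tmod and Zasp52 were called lower in ZxZ (-0.16, -0.16 and -0.25), when 41.7% of all tested genes were called. The arrays of flr, tmod, Zasp52, sls, SERCA, bt, up, fln and Mlc1 are given because of what their values showed.

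The Z disc anchors the thin filaments of adjoining sarcomeres, and 6 of 6 listed genes were measured and 5 tested, with none called and a median difference of -0.087 over the 6. Zasp52, a PDZ and LIM domain protein that binds alpha-actinin, was at 10.22, 10.27, 9.99 and 9.87 in ZxZ replicates 1 to 4, against 10.27, 9.91, 10.36 and 10.33 in ZxM replicates 1 to 4. ZxM replicates 3 and 4 were above all ZxZ arrays, ZxM replicate 1 was level with the highest of them, and ZxM replicate 2 was below all but ZxZ replicate 4. Its difference of -0.20 (SE 0.0975, adjusted p = 0.168 from limma) was the largest in size of the 26 genes. sls, which encodes kettin and Sallimus, the elastic connection between Z disc and thick filament, was at 7.44, 7.60, 7.29 and 7.11 in ZxZ replicates 1 to 4, against 7.50, 7.08, 7.64 and 7.62 in ZxM replicates 1 to 4. It was low in ZxM replicate 2 and ZxZ replicate 4 alike, and differed by -0.17 (SE 0.111, adjusted p = 0.270 from limma). Zasp66, of the same family as Zasp52, differed by 0.023 (SE 0.119), and the muscle LIM proteins Mlp60A and Mlp84B by -0.073 (SE 0.112) and 0.0050 (SE 0.116). Actn (alpha-actinin), which crosslinks actin at the Z disc, averaged 10.30 ± 0.0557 in ZxZ and 10.42 ± 0.104 in ZxM (SD, n = 4 each) and had no test. In a fit over all measured genes its difference was -0.10 (SE 0.0501).

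SERCA, the pump that returns calcium to the sarcoplasmic reticulum, was at 12.07, 12.19, 11.87 and 11.65 in ZxZ replicates 1 to 4, against 11.93, 11.55, 12.13 and 12.14 in ZxM replicates 1 to 4. Its lowest arrays were again ZxZ replicate 4 and ZxM replicate 2, and both groups averaged 11.94, with a difference of -0.058 (SE 0.123) in the weighted fit. Argk1, the arginine kinase that buffers ATP in fly muscle, averaged 12.68 ± 0.110 in ZxZ and 12.67 ± 0.167 in ZxM (SD, n = 4 each), with a difference of 0.0015 (SE 0.0781).

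While the groups did not separate, the arrays inside each group did. Taking each gene less its own mean over the 8 arrays, the median of the 26 sarcomere genes was 0.017, 0.21, -0.016 and -0.20 in ZxZ replicates 1 to 4, against -0.014, -0.20, 0.21 and 0.083 in ZxM replicates 1 to 4. In ZxZ replicate 4 all 26 genes were below their own mean, and in ZxM replicate 2 there were 25, with up as the exception. Of all 11983 measured genes, 7900 were below their own mean in ZxZ replicate 4, but 5545 in ZxM replicate 2. In ZxM replicate 3, 25 sarcomere genes were above their mean, again without up. In ZxZ replicate 2 and ZxM replicate 4 there were 23 each. Of all measured genes, 7777 were above their mean in ZxM replicate 3, 5317 in ZxZ replicate 2 and 5890 in ZxM replicate 4. By the sarcomere medians, each group held 1 high and 1 low array of about the same size, and ZxM replicate 4 (0.083) was raised to a lesser degree. A sarcomere gene ranged over 0.24 to 0.78 log2 units across the arrays (median 0.56, or 1.47-fold), and its SD inside groups had a median of 0.209, against 0.0899 over all tested genes. The standard errors of the tested sarcomere differences ran from 0.0559 to 0.130.

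**Figure D4:**
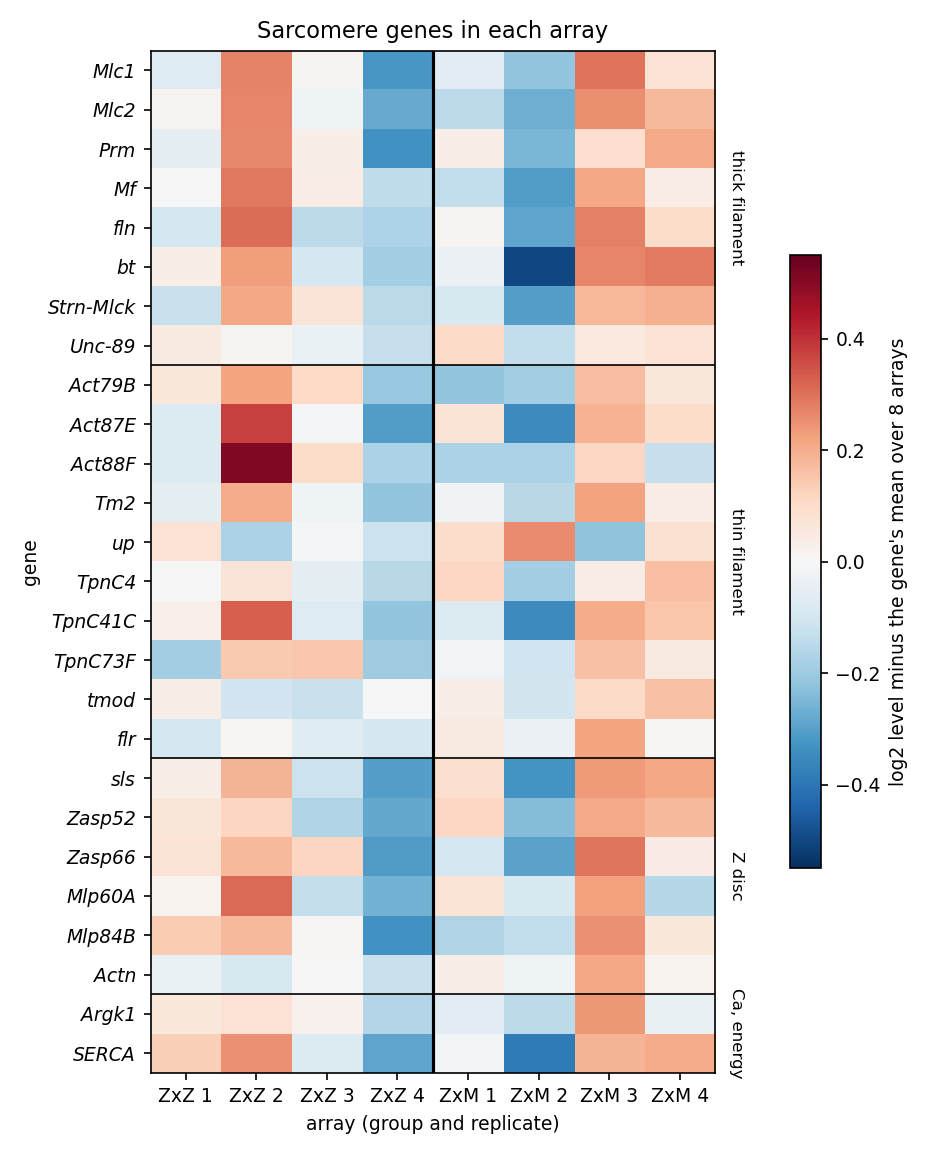
Log2 level of each of the 26 sarcomere genes (rows, by part of the sarcomere) minus the gene's mean over 8 arrays, in each ZxZ array (left of the line) and ZxM array (right). ZxZ replicate 4 and ZxM replicate 2 are low (medians -0.20 each) and ZxZ replicate 2 and ZxM replicate 3 high (medians 0.21 each), with up running the other way in 3 of these 4 arrays.

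The genes moved together over the arrays. With the group means removed, the 325 pairs of sarcomere genes had a median Pearson's r of 0.77 over the 8 arrays (quartiles 0.57 and 0.88, median Spearman's rho 0.71), and 143 pairs (44%) were above 0.8. Over all pairs of tested genes, the median r was 0.14 and 4.58% were above 0.8. The arrays and their normalization are common to all pairs, so these are descriptions without a test. The sarcomere genes also had a larger SD inside groups (median 0.209, against 0.0899 over all tested genes). No background of genes with a like spread was computed. Without ZxZ replicate 4 and ZxM replicate 2, the 2 arrays whose mean over the sarcomere genes lay farthest from that of the median array, the median r of sarcomere genes was 0.57 over 6 arrays, against 0.12 for all tested genes. Without ZxZ replicate 2 and ZxM replicate 3, the 2 with the largest median deviation, it was 0.74. Both of these were added after the data were seen. The median r was 0.83 inside the ZxZ arrays and 0.86 inside the ZxM arrays. Each of these rests on 4 arrays, with no value for all tested genes beside it, so they are not comparable with the r over 8 arrays. A first principal component of the 26 standardized genes took 74.8% of their variance.

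**Figure D5:**
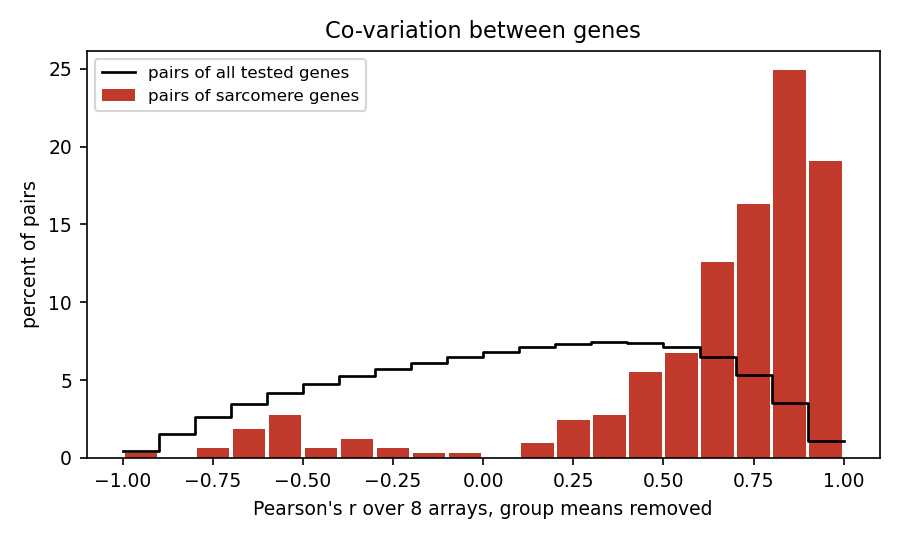
Share of gene pairs (vertical axis, percent) by Pearson's r over the 8 arrays with group means removed (horizontal axis, steps of 0.1), for 325 pairs of sarcomere genes (red bars) and all pairs of tested genes (black line). Of the sarcomere pairs 44% lie above 0.8, against 4.58% of all pairs.

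Co-variation was tightest among the thick filament genes, with a median r of 0.89 over 28 pairs, none of them below 0, against 0.70 over 15 pairs of Z disc genes and 0.67 over 45 pairs of thin filament genes. Of the Z disc pairs none was below 0, and of the thin filament pairs, which include up, 11 were. Without up, 3 of 300 pairs of sarcomere genes were below 0, against 28 of 325 with it. Against the mean of the other 25 sarcomere genes, r was highest for TpnC41C (0.98), Mlc2, Mf, Mlc1 and Tm2 (0.97 each). The flight muscle isoforms followed it at 0.92 (fln), 0.79 (TpnC4) and 0.78 (Act88F), and the other isoforms at 0.98 (TpnC41C), 0.95 (Act87E), 0.90 (Act79B) and 0.75 (TpnC73F). The least alike were Actn at 0.57, tmod at 0.33 and up at -0.64, the only negative value. Actn and tmod act in many cell types besides muscle.

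up encodes troponin T, which ties troponin to tropomyosin in all fly muscles. Its probe set was at 7.86, 7.61, 7.78 and 7.67 in ZxZ replicates 1 to 4, against 7.88, 8.04, 7.57 and 7.87 in ZxM replicates 1 to 4. It was highest in ZxM replicate 2 and lowest in ZxM replicate 3 and ZxZ replicate 2, the reverse of the other genes in these 3 arrays, and was low with them in ZxZ replicate 4. Only 1 probe set was annotated to up, so this pattern had no second measurement. Its level was low beside the median of 10.14 for the sarcomere genes. The medians of the arrays over all probe sets were 7.23 to 7.31. sls, at 7.36 in ZxZ and 7.46 in ZxM, was also low and had an r of 0.95 with the other sarcomere genes. Whether the probe set of up reports troponin T was not tested.

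Of the 26 genes, 10 had more than 1 probe set, 25 in all. For the 15 probe sets not used above, r with the mean of the other sarcomere genes ran from -0.21 to 0.99. It was above 0.75 for 8 of them, which belong to Mf, Prm, SERCA, sls, Strn-Mlck and Zasp66, and between 0.3 and 0.75 for 4, of Mlp60A, sls and tmod. It was under 0.1 for 3, with 0.053 for a second probe set of Strn-Mlck, 0.0040 for that of TpnC73F and -0.21 for that of Unc-89. These 3 averaged 7.46, 6.45 and 6.89 in ZxZ and 7.36, 6.46 and 6.89 in ZxM. When each of the 41 probe sets was tested together with every other probe set of 1 gene, none was called (smallest adjusted p = 0.156 from limma, 2 at an unadjusted p under 0.05). The smallest p was that of a second tmod probe set, which was at 7.28 in ZxZ and 7.17 in ZxM, a difference of 0.12, opposite in sign to the tmod probe set described above. Its lowest ZxZ array (7.25) was above its highest ZxM array (7.21), so its groups did not overlap. The same held for 1227 of the 11983 measured genes on the probe set kept for each. No such share was computed over every probe set.

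When the mean of the other sarcomere genes in the same array was subtracted, an alternative added after the data were seen, the SD inside groups was smaller for 21 of the 26 genes and its median was 0.104, against 0.209 as deposited. On this scale the groups still overlapped for all 26, and they did so for nearly all tested genes, with 0.601% not overlapping. The subtraction adds the spread of the sarcomere mean to genes that do not follow it. The share of 0.601% is therefore not a like background for the 26. Act88F was then at -0.83 ± 0.178 in ZxZ and -1.05 ± 0.111 in ZxM (SD, n = 4 each), a difference of 0.21, and Zasp52 at 0.035 ± 0.0928 in ZxZ and 0.15 ± 0.0754 in ZxM, a difference of -0.11. These are the 2 ends of the list.

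Other measures also varied between the arrays. The 75th percentile of an array was 9.53, 9.51, 9.48 and 9.45 in ZxZ replicates 1 to 4, against 9.60, 9.54, 9.63 and 9.56 in ZxM replicates 1 to 4. It was lowest in ZxZ replicate 4 and highest in ZxM replicate 3, while ZxM replicate 2 and ZxZ replicate 2 lay in between. The sarcomere genes were about as low in ZxM replicate 2 as in ZxZ replicate 4. They were about as high in ZxZ replicate 2 as in ZxM replicate 3. After quantile normalization, which makes these percentiles equal, the median r of sarcomere pairs was 0.67, with no value for all tested genes computed there. The median deviation of the 7 midgut protease and lysozyme genes was -0.23 in ZxZ replicate 4 and 0.19 in ZxM replicate 3, but -0.0044 in ZxM replicate 2 and 0.048 in ZxZ replicate 2. The mean level of these 7 ran from 11.64 to 12.00 in ZxZ and from 11.90 to 12.08 in ZxM. For the 9 measured eggshell genes of the ovary it ran from 12.52 to 13.34 in ZxZ and from 12.83 to 13.57 in ZxM, for the 7 fat body genes from 12.14 to 12.33 in ZxZ and from 11.98 to 12.27 in ZxM, and for the 7 neuronal genes from 7.29 to 7.37 in ZxZ and from 7.32 to 7.39 in ZxM. The part of array scale and of other tissues in the co-variation was not tested.

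The 9 measured genes of glycolysis, which supply ATP to muscle and other tissues, moved the same way as the sarcomere genes in the 4 extreme arrays, over a smaller range. Their median deviation was 0.053 in ZxZ replicate 2 and -0.080 in ZxZ replicate 4, against -0.10 in ZxM replicate 2 and 0.064 in ZxM replicate 3. They did not follow the sarcomere genes in every other array. In ZxM replicate 4 they were at -0.077 (sarcomere genes 0.083) and in ZxM replicate 1 at 0.043 (sarcomere genes -0.014). In ZxZ replicates 1 and 3 they were at 0.050 and 0.00095 (sarcomere genes 0.017 and -0.016). The median r of their pairs was 0.48, while it was 0.54 for the midgut genes, 0.50 for the eggshell genes and 0.34 for genes of integrin attachment.

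Of 10 measured genes of integrin attachment, which tie the contractile apparatus to tendon and matrix and act in many tissues, 7 were tested: 2 passed, both lower in ZxZ, and 5 did not, where 17.6% of all tested genes were lower. At an unadjusted p under 0.05 there were 4 of the 7, against 35% of all. Vinc (vinculin) was at 10.09, 10.11, 9.99 and 9.99 in ZxZ replicates 1 to 4, against 10.20, 10.22, 10.19 and 10.18 in ZxM replicates 1 to 4, with no overlap and a difference of -0.16 (SE 0.0478, adjusted p = 0.0874 from limma). rhea (talin), which links integrin to actin, differed by -0.21 (SE 0.0638, adjusted p = 0.0888). The SD inside groups of these 10 genes had a median of 0.0749, against 0.209 for the sarcomere genes. Of other structural proteins of muscle, 7 were measured and 4 tested, of which 1 was lower in ZxZ and none higher, again beside 17.6% lower among all. This was cher, the filamin, at -0.23 (SE 0.0696, adjusted p = 0.0888). Mlc-c, the essential light chain of cytoplasmic myosin and the 1 gene measured of that list, was lower by -0.16 (SE 0.0532, adjusted p = 0.0926 from limma). No gene passed among 5 tested of glycolysis, 2 of calcium coupling and 2 muscle regulators, of which 0, 0 and 0 were at an unadjusted p under 0.05, against 18.7% of all tested genes called and 35% at that unadjusted p. None of these calls of Vinc, rhea, cher and Mlc-c held without ZxZ replicate 3 or 4 or ZxM replicate 1 or 3, when limma called no gene, nor without array weights or after quantile normalization, when it also called none. Whether sarcomere and attachment genes differ in their response was not tested.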

How the data were processed

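RNA of 8 pools of females, 4 ZxZ and 4 ZxM, was measured on 1 array each. The authors made the deposited log2 values with VSN (background, normalization between arrays, variance-stabilizing transformation) and an RMA summary of probes (affy, R 2.8.1). VSN compresses differences between low values. No scanner file was analysed here, which leaves the signal over background unknown, and precision is limited by how few arrays there are. Whether the pools are separate cultures is not stated in the sources used here, so p-values measure the spread between pools.

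Of 18952 probe sets, 13647 had 1 gene in the platform annotation, with symbols updated by Entrez number through the gene table of assembly Release 6 plus ISO1 MT. The probe set of largest variance was kept for each of 11983 genes, and the 5991 in the upper 50% by interquartile range were tested. The authors' filter on low variability is stated as a limit on the interquartile range, which was read here as a quantile and may have kept other genes. The test was limma 3.58.1 in R 4.3.3 (array weights by REML, eBayes, two-sided, 10% FDR over all tested genes), after a run on simulated data. Isoform pairs had exact permutation tests over arrays. Members, lists and tests were chosen with earlier results of these data known. The rule was to give each array's value for called sarcomere genes and paired isoforms, and to name at most 3 genes of other lists. Alternatives were no array weights, no variability filter, the probe set of highest mean or every probe set, quantile normalization, median centring and the lowest 25% of probe sets left out. Others were a replicate block, a trended robust prior, a t-test without array weights or moderation, and each array left out. Gene sequences were not used here.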

Additional observations from a re-analysis of the deposited data

Results flagged for a closer look

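In the 60 groups of 4 arrays looked at (26 genes and 4 isoform pairs in both groups), 1 array stood far from the other 3. This was fln in ZxZ replicate 2, at 10.27, with the other ZxZ arrays between 9.79 and 9.87. Its gap was 0.849 of the group's range, against a critical value of 0.829 for 4 arrays. Chance alone flags about 1 in 20 groups. Of the ZxM arrays, replicate 3 was at 10.24 for the same gene. Without ZxZ replicate 2, fln differed by -0.20 and was called (adjusted p = 0.0930 from limma), against -0.11 and an adjusted p of 0.485 with all arrays.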

How the results depend on the processing

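Of 5991 tested genes 1123 were called, but 0 without array weights, without the variability filter, with every probe set and after quantile normalization (1365, 2529, 2718 and 584 at an unadjusted p under 0.05), 10 with the methods' t-test, 2500 with centred arrays and 0 to 2968 with 1 array left out. Sarcomere genes called were 0 in all of these except 3 with centred arrays (flr, tmod and Zasp52) and 0 to 4 with 1 array left out, all lower in ZxZ. With the replicate block 0 were called, and 1 of all genes. The deviations of same-numbered arrays correlated at 0.15, -0.23, -0.19 and 0.16, not all above 0.1, and 4 of 8 arrays correlated best with their own number. The labels give 4 replicates of both matings but not what a replicate shared, so the arrays were not treated as paired, and whether they are was not settled.

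The median difference of the sarcomere genes ran from -0.12 to 0.042 over all settings. Their median r was 0.67 after quantile normalization, 0.72 with group means kept, 0.57 without ZxZ replicate 4 and ZxM replicate 2 (the 2 arrays farthest from the median by their mean), 0.74 without ZxZ replicate 2 and ZxM replicate 3 and 0.73 to 0.82 with 1 array left out. TpnC4 less TpnC73F was 0.048 after quantile normalization and -0.089 to 0.042 with 1 array left out.

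Small differences changed sign, with the cause not tested, in 28 of 234 combinations of gene and setting. Without array weights, in limma and in the t-test without moderation alike, these were Strn-Mlck (0.0045), TpnC41C (0.034), Mlp84B (-0.0049) and SERCA (0.0080). Without the filter they were Mlc2 (0.0089), Strn-Mlck (0.0053) and TpnC41C (0.027). After quantile normalization they were Mlc2 (0.037), Prm (0.0067), Strn-Mlck (0.025), Act87E (0.021), Tm2 (0.019), TpnC4 (0.0083), TpnC41C (0.071), Mlp60A (0.028) and SERCA (0.0018). With centred arrays they were Zasp66 (-0.016), Mlp84B (-0.032) and Argk1 (-0.037), with the block Zasp66 (-0.030), Mlp84B (-0.016) and Argk1 (-0.0040), with the probe set of highest mean Zasp66 (-0.028), and with the lowest 25% left out Argk1 (-0.0035). With 1 array left out, differences ran from -0.15 to 0.058 (Mlc1), -0.14 to 0.10 (Mlc2), -0.17 to 0.038 (Prm), -0.17 to 0.17 (Mf, where another probe set varied most), -0.19 to 0.026 (bt), -0.11 to 0.066 (Strn-Mlck), -0.18 to 0.067 (Act87E), -0.13 to 0.026 (Tm2), -0.11 to 0.11 (TpnC41C), -0.11 to 0.041 (TpnC73F), -0.036 to 0.14 (Zasp66), -0.19 to 0.067 (Mlp60A), -0.077 to 0.14 (Mlp84B), -0.033 to 0.065 (Argk1) and -0.16 to 0.089 (SERCA). Of the 26 genes, 10 kept their sign in every setting scored gene by gene, which leaves out the fit of every probe set. Among these 10 were tmod, sls and Unc-89. In the fit of every probe set, another probe set of each differed by 0.12, 0.011 and 0.011, opposite in sign to the one used above. A further probe set of sls kept the sign (-0.016).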
